A study of Mus musculus with 4 samples.

Results

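The genes described here are those that the arrays measured outside a set of 32 well-studied gene lists, such as MHC class II, the cell cycle, ribosomal proteins or cell type markers. The lists were rebuilt from their topics, so a gene related to a topic, such as an E2F partner, can be outside its list, and the counts of genes outside the lists depend on this choice. These lists hold 1008 of the 8220 measured genes, and the other 7212 were compared between cells after 7 days of differentiation and their progenitors. The series consists of 4 arrays of mouse cells, 1 for each group. The progenitor group is dendritic cell progenitors from bone marrow, and the label of the TNF array says that such progenitors were first amplified in vitro. The other groups were made from such progenitors and are cells differentiated for 7 days, cells differentiated for 10 days, and cells differentiated for 10 days with tumour necrosis factor alpha (TNF) for 16 hours. No array is labelled with a strain, genotype, age, number of animals or culture medium. With 1 array on each side there is no replicate spread, no test and no p-value, so each difference below is a difference between 2 arrays. In RNA from a whole culture, more cells of a type and more RNA per cell cannot be told apart.

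Dendritic cells take up material from their surroundings, cut it into peptides and show these to T cells. Their progenitors divide rapidly and spend much of their synthesis on nucleotides, proteins and secretory granules. The work of the differentiated cell rests on surface receptors that sense and bind, on digestive enzymes, and on signalling proteins that act below the receptors.

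Levels are scaled intensities in arbitrary units, and a negative level is a probe set dimmer than its background. A gene was represented by its brightest probe set, a set of short oligonucleotides for one transcript. Levels under 428 units, the 60th percentile of all values, were treated as not measurable, and 428 units then stood in for them. A fold against such a level is given as "at least". A gene was called higher or lower when the day 7 and progenitor arrays differed at least 2-fold. The number of genes above 428 units lay between 3888 and 3991 on the 4 arrays, and 22.8% to 24.3% of probe sets lay below 0. In 374 genes with 2 probe sets above 428 units on both arrays, the log2 ratios of these probe sets differed with an SD of 0.61 (median absolute difference 0.31), and in 36 of the 374 they differed at least 2-fold. In 103 of the 374 the log2 ratios had opposite signs, counting ratios of any size. This is technical disagreement within 2 arrays and leaves out the spread between cultures.

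The labels were checked against cell type markers. Of 14 dendritic cell markers, 4 lay above 428 units in progenitors and 14 at day 7, and their summed level went from 6960 to 93715 units. Flt3 alone among them went the other way, from 1972 to 805 units. Of 12 macrophage markers, 6 and then 8 lay above it, with sums of 11582 and 47894 units, while C1qa, C1qb, C1qc and Siglec1 lay under it at day 7. The 5 early granulocyte markers summed to 101438 and 17193 units, and the 10 late granulocyte markers to 132157 and 125447 units. The late granulocyte sum was thus high on both arrays, while single markers differed. Csf3r went from 1939 to 7916 units and Mmp9 from 135 to 1353, S100a9 went from 27940 to 20977, and Lcn2 was at 614 and 600. Eosinophil markers summed to 2773 and 8143 units. Mast cell and basophil markers had 3 and then 2 of 9 above 428 units, with sums of 4671 and 1966. Among them Cpa3 went from 1638 to 386 units and Mcpt8 from 1734 to 546, while Cma1 went from 91 to 438. T and NK cell markers and stromal markers had 0 members above 428 units at day 7, of 8 and of 9 measured, and B cell, erythroid and megakaryocyte markers had 2 of 7, 2 of 6 and 1 of 4. The part of these other cell types in the differences below was not tested.

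Among all 4311 genes that passed 428 units on either array, 453 were called higher at day 7 (10.5%) and 419 lower (9.72%), with a median log2 ratio of -0.07. Of the 7212 genes outside the lists, 3694 were above it. Of these, 332 were called higher (8.99%) and 311 lower (8.42%), both shares slightly under those of all genes, and their median log2 ratio was -0.06. The balance of calls differed between kinds of gene. Surface molecules had 46 of 197 genes higher (23.4%) and 17 lower (8.63%). This class also counts proteins that act elsewhere. Among those higher are the secreted Il1rn, the chaperone Lrpap1, the lysosomal Gpr137b and the intracellular Clic4. Signalling genes had 33 of 304 higher (10.9%) and 15 lower (4.93%), and enzymes had 41 of 439 higher (9.34%) and 61 lower (13.9%). With a 3-fold rule the enzymes had 23 higher and 22 lower, so their balance rested on the smaller ratios. Secreted proteins had 6 of 36 higher and 4 lower. These classes were assembled with earlier results of these data known, so the counts are descriptions.

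**Figure D1:**
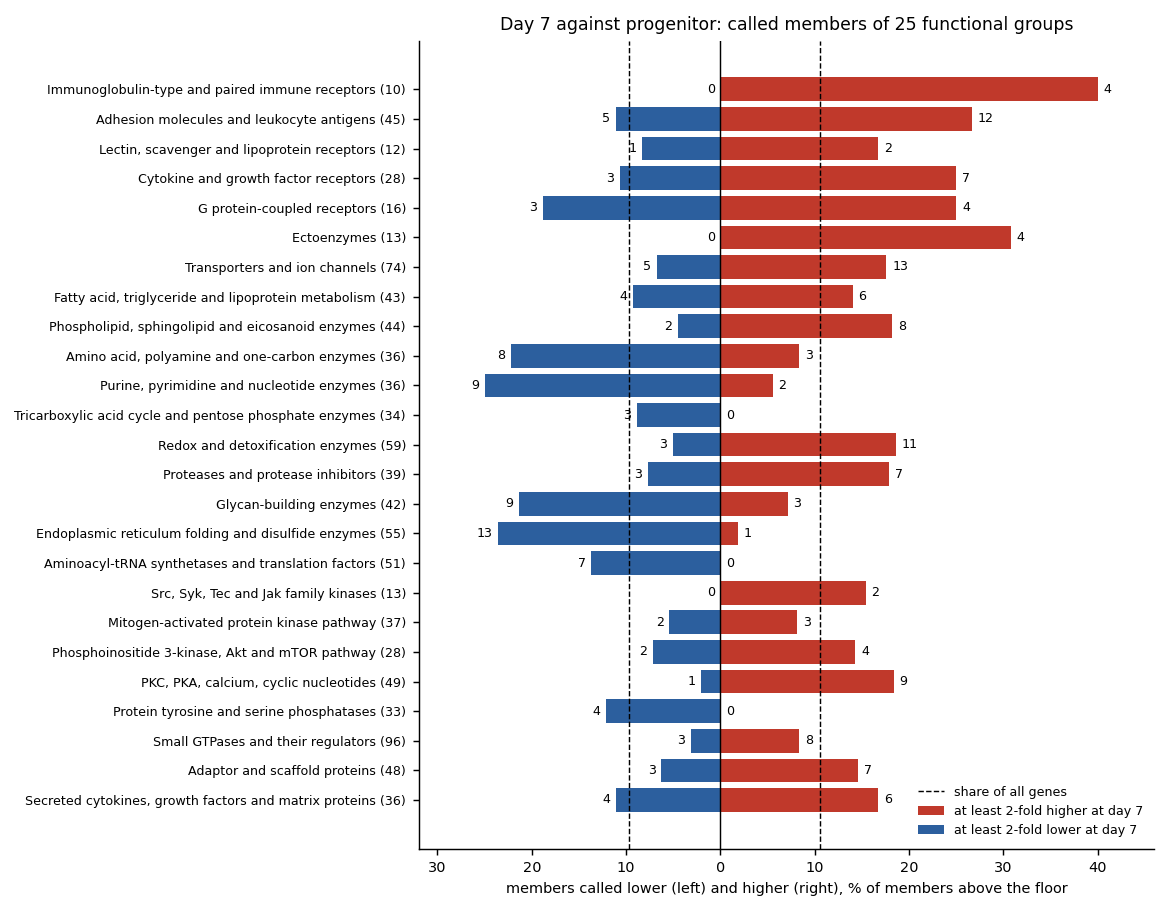
Share of genes called higher (right, red) and lower (left, blue) at day 7 in each of 25 functional groups, as a percentage of the group's genes that passed 428 units on either array. Numbers at the bars are genes called, numbers in parentheses are genes above 428 units, and dashed lines are the shares of all genes (10.5% higher, 9.72% lower). All 7 surface groups, at the top, had more genes higher than lower, but they also count proteins that act elsewhere, such as Il1rn and Lrpap1. The endoplasmic reticulum folding group, which includes genes such as Fkbp5 and Ddit3 that act elsewhere, had 13 lower and 1 higher.

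Promoters of these genes were read for short motifs of factors that act in myeloid and in dividing cells. RefSeq promoters of build GRCm38.p6, from 250 bases before a transcription start to 50 after it, were found for 282 of the 332 genes called higher, 260 of the 311 called lower and 6550 of the 8220 measured. The core motif of PU.1, the myeloid master regulator (AGAGGAAG, either strand), was in 7.09% of the higher genes, 3.46% of the lower genes and 5.59% of all measured genes. The motif TTTCCCGC of E2F factors, which drive S phase genes, was in 2.13%, 5.0% and 2.15%, and its variant TTTGGCGC in 0.709%, 2.31% and 1.1%. The other motifs differed less in proportion. The AP-1 motif TGANTCA was in 8.16% of higher and 7.31% of lower genes (7.48% of all), the Myc E-box CACGTG in 13.8% and 11.5% (11.5%), the NF-kB motif in 35.1% and 28.1% (30.2%), and the IRF motif, a pair of GAAA with any 2 bases between them, in 4.96% and 3.46% (3.83%). The PU.1 counts behind these shares are 20 higher and 9 lower genes, and the TTTCCCGC counts are 6 and 13. The higher genes also had more windows, 395 for 282 genes against 316 for 260, because several genes have more than 1 annotated start, and each window adds a chance of a match.

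The 4 promoters below show such matches as they lie upstream of genes described further on, 2 holding the PU.1 core and 2 holding an E2F motif. They were chosen after the values were seen. Each is the 250 bases before the start in the direction of transcription, with the motif in capitals. Cyth3 (chr5:143622197-143622446, plus strand), a PI3K-regulated exchange factor that was higher at day 7, holds the PU.1 core on the opposite strand, starting 174 bases before the start. Ptpn22 (chr3:103859545-103859794, plus strand), a tyrosine phosphatase that was lower, holds it on the opposite strand too, starting 9 bases before the start. Ranbp1 (chr16:18248695-18248944, minus strand), a cofactor of the GTPase Ran, was lower and holds an E2F motif starting 37 bases before the start. Cct3 (chr3:88296885-88297134, plus strand), a chaperonin subunit, was lower and holds the variant E2F motif starting 224 bases before it.
Cyth3: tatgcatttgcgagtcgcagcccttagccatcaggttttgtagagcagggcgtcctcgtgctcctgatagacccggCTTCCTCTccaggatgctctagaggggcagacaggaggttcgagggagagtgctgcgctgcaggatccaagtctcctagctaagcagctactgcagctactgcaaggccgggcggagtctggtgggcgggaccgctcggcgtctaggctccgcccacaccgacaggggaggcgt
Ptpn22: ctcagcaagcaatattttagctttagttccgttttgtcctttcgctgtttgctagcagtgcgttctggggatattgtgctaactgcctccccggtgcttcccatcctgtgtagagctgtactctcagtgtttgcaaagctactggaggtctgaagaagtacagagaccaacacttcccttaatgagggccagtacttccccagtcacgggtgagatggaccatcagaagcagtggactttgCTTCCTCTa
Ranbp1: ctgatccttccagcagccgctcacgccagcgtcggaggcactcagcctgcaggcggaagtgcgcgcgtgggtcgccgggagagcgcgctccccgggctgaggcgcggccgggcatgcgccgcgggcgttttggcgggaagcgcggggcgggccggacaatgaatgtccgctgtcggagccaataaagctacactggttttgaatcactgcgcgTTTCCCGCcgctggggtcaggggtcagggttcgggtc
Cct3: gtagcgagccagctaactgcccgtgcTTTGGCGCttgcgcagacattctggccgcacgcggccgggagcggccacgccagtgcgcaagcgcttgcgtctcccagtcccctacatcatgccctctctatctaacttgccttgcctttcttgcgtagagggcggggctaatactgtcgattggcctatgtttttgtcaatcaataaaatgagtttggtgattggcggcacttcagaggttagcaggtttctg
A motif did not fix the direction of a gene. The PU.1 core was in the windows of Fbp1 and Ptpn22, which were lower, and E2F motifs were in the windows of Kcna3 and Lrp1, which were higher.

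Genes measured by several probe sets give the firmest single ratios in a comparison of 2 arrays. Among all genes with 2 or more probe sets above 428 units, 4.5% had at least 2 of them called higher and 0 called lower, and 4.09% had at least 2 called lower and 0 higher. Of the 7212 genes, 1381 have more than 1 probe set and 418 have more than 1 above 428 units. In 12 of these, at least 2 probe sets were called higher, in 16 at least 2 were called lower, and in 0 were probe sets called in opposite directions. Another 66 of the 418 had 1 probe set called and the others not. Probe sets marked here as shared or non-unique are those whose names end in _f_at, _r_at, _s_at, _g_at or _i_at. These endings differ in meaning. Some such probe sets can overlap with a sister probe set of the same gene, and matches to other genes were not examined. Only 5 higher and 5 lower genes had 2 called probe sets without such a mark, named unique below. Some genes described below have a second probe set under 428 units on both compared arrays, so their ratios rest on the brightest one. Among them are Arg2, St6gal1, Upp1, Plekha1, Pabpc4, Chpt1, Abcf2, Slc19a1, Piga and Clu.

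The 5 higher genes by unique probe sets were Sgpl1, Slc6a6, Clic4, Dab2 and Pik3cd. Sgpl1 encodes the lyase that irreversibly degrades sphingosine 1-phosphate. Its probe sets went from 1829 to 8235 units and from 1210 to 4961, which are 4.5-fold and 4.1-fold, and both stayed at that level on the day 10 and TNF arrays (5499 to 7931 units). Slc6a6, the taurine transporter, went from 5166 to 15739 units (3.05-fold) and from 1050 to 3288 (3.13-fold). The brighter Slc6a6 probe set was lower again at day 10 (7734 units) and with TNF (3727), whereas the dimmer was at 3162 and 2476 units. Clic4, an intracellular chloride channel protein, had 3 probe sets at 1501 to 2340 units in progenitors and 3662 to 5406 at day 7, with folds of 2.22 to 2.47. All 3 were far higher still with TNF, at 12508 to 21428 units. Dab2, an endocytic adaptor, went from 840 to 4106 units by one unique probe set (4.89-fold), from 374 to 934 by another (at least 2.18-fold) and from 2390 to 14508 by a shared one (6.07-fold). Pik3cd encodes the leukocyte catalytic subunit p110 delta of PI3K. Its probe sets went from 2486 to 5168 units (2.08-fold) and from -83 to 2842 (at least 6.64-fold), so they gave the same direction and very different sizes.

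The 5 lower genes by unique probe sets act in the nucleus, in translation or in DNA synthesis. Dtymk, the kinase that makes thymidine diphosphate, went from 3889 to 1162 units (3.35-fold) and from 1933 to 850 (2.27-fold). Cbx5, the heterochromatin protein HP1 alpha, went from 3601 to 981 units (3.67-fold) and from 1444 to 635 (2.27-fold). Anp32e, a chaperone that removes the histone variant H2A.Z, went from 4422 to 1857 units (2.38-fold) and from 1681 to 607 (2.77-fold). Dtymk and Anp32e lay lower still on the day 10 and TNF arrays, at 102 to 950 units over all their probe sets. Nsun2, an RNA methyltransferase, had 3 probe sets at 2664 to 6047 units in progenitors and 879 to 1841 at day 7, with folds of 2.17 to 3.28. Wdr43, a ribosome assembly factor, went from 1915 to 923 units and from 1357 to 618, with folds of 2.07 and 2.2.

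Another 7 genes were called higher by 2 probe sets of which at least 1 is shared or non-unique. Rnf13, a membrane-bound ubiquitin ligase of endosomes, went from 1148 to 4804 units by its unique probe set (4.18-fold) and from 1148 to 3745 by the other (3.26-fold). Evi2a, Grina and Ptprc were 2.71-fold, 2.51-fold and 2.55-fold higher by the unique probe set. Ptprc encodes CD45, the receptor phosphatase found on all leukocytes, and was at 2137 and 5441 units, although another unique probe set lay near 0 on every array. Scd1, which makes monounsaturated fatty acids, was at 2483 and 6350 units (2.56-fold). Otulinl was 3.98-fold and 4.12-fold higher by its non-unique probe sets, which went from 847 to 3375 units and from 629 to 2591. Basp1, a membrane-bound protein first described in neurons, was at 2326 units in progenitors, 8741 at day 7, 22558 at day 10 and 36862 with TNF by one probe set. Its other probe set went from 96 units in progenitors to 12542 at day 7, at least 29.3-fold higher, against 3.76-fold for the first. The Basp1 probe sets thus agreed in direction and differed in size by more than any other pair among these 28 genes.

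The remaining 11 lower genes include folding enzymes, E2F pathway proteins and an enzyme of the methylation cycle. Ero1a, the oxidase that drives disulfide formation in the endoplasmic reticulum, was at 10603 and 3234 units (3.28-fold lower), but was back at 9563 units at day 10 and 9110 with TNF, and its other probe set followed the same course. Pdia6, a disulfide isomerase, was at 9494 and 2835 units (3.35-fold lower), while its dimmest probe set went from 460 to 244 units, too close to 428 units to give a call. Ssr3, a subunit of the complex at the secretory translocon, was at 15895 and 7665 units (2.07-fold lower), and its second unique probe set was 1.9-fold lower. Ahcy, which removes the by-product of methylation reactions, was at 5800 and 1606 units by its brighter unique probe set (3.61-fold lower). Tfdp1, the partner of E2F factors, was at 11987 and 3477 units (3.45-fold lower), and E2f8, a repressor of the same family, at 2787 and 934 units (2.98-fold lower) with 27 to 230 units on the later arrays, all by probe sets marked as non-unique. Cct3, whose promoter is printed above, was at 4321 and 1707 units by its called unique probe set (2.53-fold lower). Fkbp4, Dctpp1, Srsf2 and Ceacam1 completed the group, with folds of 2.06 to 3.76 over their probe sets.

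**Figure D2:**
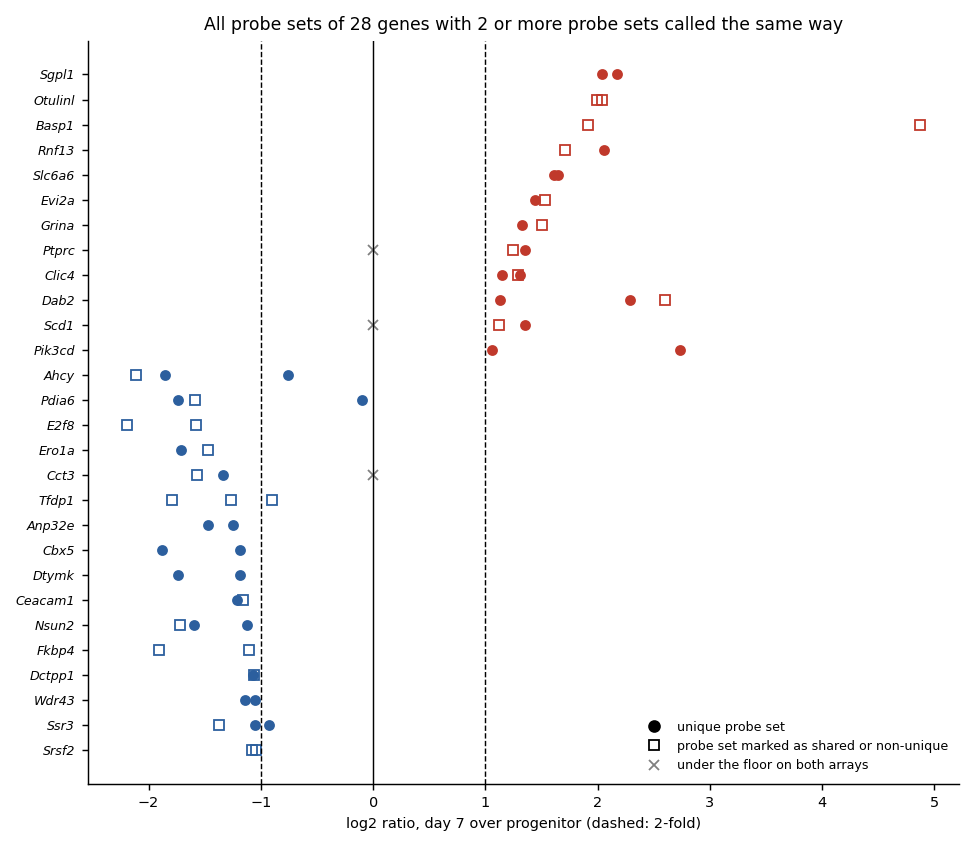
Log2 ratio of day 7 over progenitor for every probe set of the 28 genes with at least 2 probe sets called the same way. Filled circles are unique probe sets, open squares those marked as shared or non-unique, crosses those under 428 units on both arrays, and dashed lines mark 2-fold. Most pairs lie close together, while the pairs of Basp1 and Pik3cd lie far apart on the same side.

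Surface molecules were the class with the most genes higher. Cd9, a tetraspanin that organises receptors in the membrane, went from 2460 units in progenitors to 23540 at day 7 (9.57-fold higher), with 36638 at day 10 and 24979 with TNF. Of 45 adhesion molecules and leukocyte antigens 12 were higher and 5 lower, and the median log2 ratio was 0.47. Among them Emp1, a small membrane glycoprotein, was at 1212 and 6777 units (5.59-fold higher). Itm2c was at 1294 and 4811 units (3.72-fold), and F11r, the junctional adhesion molecule JAM-A, at 579 and 2102 (3.63-fold). Cd9, Itm2c and F11r stayed above their day 7 level on both later arrays, while Emp1 did not. Of 5 genes lower, Adgrg3, an adhesion-type receptor best known from neutrophils, was at 7390 and 2212 units (3.34-fold lower) and reached 322 units with TNF. Emb and Icam2, an adhesion molecule that binds LFA-1, were 2.38-fold and at least 2.31-fold lower. Ceacam1 was 2.32-fold lower by its unique probe set, at 5438 and 2347 units. The late granulocyte markers given above had nearly the same sum on both arrays, although single markers differed in direction. Their part in these values was not tested.

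Immunoglobulin-type and paired receptors had 4 of 10 genes higher and 0 lower. These were Cd48, Ly9, Cd244a and Lilr4b. Cd48, the ligand of the SLAM family receptor Cd244a, was at 1064 and 5314 units (5.0-fold higher), and Cd244a itself was at 282 and 907 (at least 2.12-fold). Ly9, another SLAM family member, went from -44 units in progenitors to 2115 at day 7 (at least 4.94-fold), then at 1285 units at day 10 and 365 with TNF. Lilr4b, an immunoglobulin-like receptor, was at 5424 and 22235 units (4.1-fold), but it has a near-identical neighbour, Lilrb4a, so which copy was read is uncertain. Of the 4 genes, Ly9 was the one that fell under 428 units on the TNF array.

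Receptors of the LDL receptor family differed in direction. Lrp1, which takes up protease complexes and apoptotic material, was at 1868 units in progenitors, 9644 at day 7 (5.16-fold higher), 20670 at day 10 and 11187 with TNF. Lrpap1, the chaperone that carries Lrp1 through the secretory pathway, was at 708, 2204, 4736 and 3421 units on the same arrays (3.11-fold at day 7). Both peaked at day 10. Lrp5, a Wnt co-receptor of the same family, went from 1359 units in progenitors to 204 at day 7 (at least 3.17-fold lower). The group of lectin, scavenger and lipoprotein receptors had 2 of 12 genes higher (16.7%) and 1 lower (8.33%), against 10.5% and 9.72% of all genes. The chaperone Lrpap1 is counted in this group as higher.

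The cytokine receptor group, which also counts the secreted antagonist Il1rn, had 7 of 28 genes higher and 3 lower. Receptors for the growth factors of myeloid cultures were among those higher. Csf2rb2, the beta chain used by interleukin 3, was at 1117 and 7625 units (6.83-fold). The common beta chain Csf2rb was at 3380 and 6846 units and the GM-CSF receptor alpha chain Csf2ra at 5449 and 10940, both just over 2-fold and chosen after their values were seen. Csf2rb and Csf2rb2 are near-identical copies, so how signal is split between them is uncertain. Il1rn, which encodes the secreted antagonist of the interleukin 1 receptor, was at 1029 and 5748 units (5.59-fold), and the decoy receptor Il1r2, which also blocks interleukin 1, went the other way, from 24795 to 6954 units (3.57-fold lower). A non-unique Il1r2 probe set showed only 1.25-fold, 2445 and 1962 units, so the 2 probe sets disagree in size. Il13ra1 was at 150 and 909 units (at least 2.12-fold higher). Il6st, the shared signalling chain gp130, was at least 2.47-fold higher by its brighter probe set, and by the other was at 358 and 466 units. Il18rap, an interleukin 18 receptor chain, was at 1181 and 307 units (at least 2.76-fold lower), and Igf1r, the insulin-like growth factor receptor, at 2330 and 1031 (2.26-fold lower).

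Ectoenzymes and membrane proteases had 4 of 13 genes higher and 0 lower at a median log2 ratio of 0.65, the highest median of the 25 groups. Car4, a membrane-anchored carbonic anhydrase, was at 620 and 2627 units (4.24-fold) and at 6193 units at day 10. Adam9, a membrane metalloprotease, was at 607 and 1723 units (2.84-fold), and was back at 772 units at day 10. Psen2, a catalytic subunit of gamma-secretase, was 2.32-fold higher by a shared probe set, and Bst1, which acts on NAD, was at 254 and 940 units (at least 2.2-fold).

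G protein-coupled receptors had 4 of 16 genes higher and 3 lower. Receptors of 3 inflammatory mediators were higher. C3ar1, the receptor of the complement fragment C3a, was at 419 and 1826 units (at least 4.26-fold). Ptger4, a receptor of prostaglandin E2, was at -16 and 1478 units (at least 3.45-fold) and reached 5788 with TNF. Ptgir, the prostacyclin receptor, was at 443 and 1293 units (2.92-fold). Gpr137b, a lysosomal membrane protein counted in this group, was at 93 and 2768 units (at least 6.47-fold), and the gene annotated as its pseudogene, Gpr137b-ps, at 617 and 9084 (14.7-fold). These copies are near-identical, so the split of signal between them is uncertain. The receptors that were lower include Gpr65, which senses acid, at 2609 and 314 units (at least 6.09-fold lower), and S1pr4, a leukocyte receptor of sphingosine 1-phosphate, at 1642 and 385 (at least 3.84-fold lower). Gcgr, the glucagon receptor, was at 1129 and 397 units (at least 2.64-fold lower). Sgpl1, the enzyme that destroys the ligand of S1pr4, stood higher on the same array, as given above.

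Transporters and ion channels had 13 of 74 genes higher and 5 lower. Slc6a4, the serotonin transporter, was at 272 and 1968 units (at least 4.6-fold higher). P2rx4, an ATP-gated channel, was at 128 and 1612 units (at least 3.77-fold) and climbed to 4123 at day 10 and 5832 with TNF. Kcna3, a voltage-gated potassium channel, was at 228 and 1411 units (at least 3.29-fold), whereas Kcnn4, a calcium-gated potassium channel, was at 1786 and 722 (2.47-fold lower). The 2 potassium channels thus differed in direction at day 7, and at day 10 each stood above its own progenitor level (2594 units for Kcna3 and 2544 for Kcnn4). Slc19a1, which imports reduced folate, was at 1067 and -245 units (at least 2.49-fold lower). Abcf2 and Abcb8, ATP-binding cassette proteins, were 2.9-fold and at least 2.55-fold lower.

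**Figure D3:**
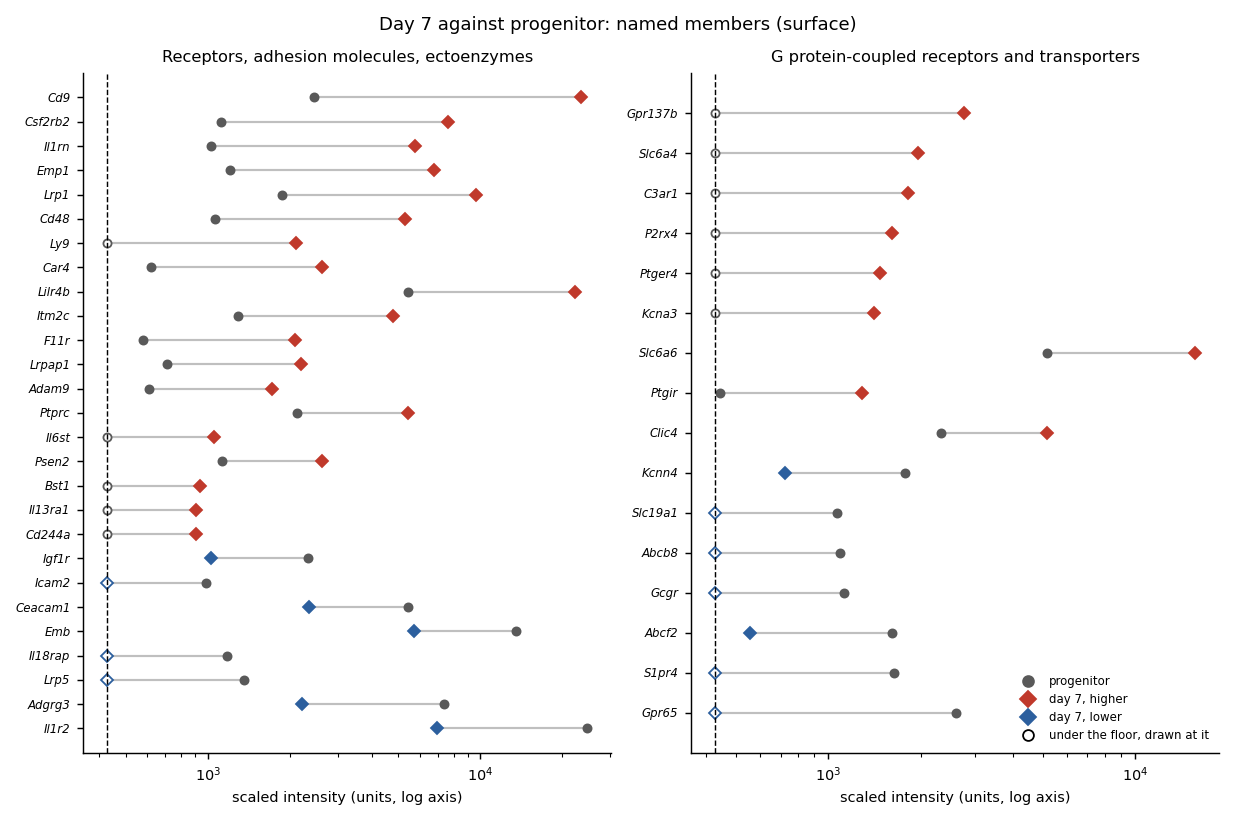
Scaled intensity of named surface genes on the progenitor array (grey circles) and the day 7 array (red diamonds where higher, blue where lower), on a log axis. Open symbols are levels under 428 units drawn at that value (dashed line). Cd9, from 2460 to 23540 units, spans the widest distance to the right, and Il1r2 lies to the left of its progenitor level of 24795.

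Enzymes split by pathway. Phospholipid, sphingolipid and eicosanoid enzymes had 8 of 44 genes higher and 2 lower, against 2 of 36 higher and 9 lower for nucleotide enzymes. Pld3, a lysosomal nuclease of the phospholipase D family, had the largest ratio among the brightest probe sets of the 7212 genes with values raised to 428 units. Folds given as "at least" may be larger, and a second probe set of Basp1 was at least 29.3-fold higher. Pld3 was at 571 units in progenitors, 9500 at day 7 (16.6-fold), 29396 at day 10 and 15310 with TNF. Pld4, a related lysosomal nuclease chosen after its values were seen, was at 596 and 2430 units, and Pld2, a phospholipase that makes phosphatidic acid, at 345 and 1921 (at least 4.49-fold). The enzymes that use leukotriene A4 went in opposite directions. Ltc4s, which makes leukotriene C4 from it, was at 804 and 4063 units (5.05-fold higher), and Lta4h, which makes leukotriene B4, was at 25753 and 11532 (2.23-fold lower). Chpt1, which makes phosphatidylcholine, was at 1911 and 708 units (2.7-fold lower).

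Genes of fatty acid and triglyceride metabolism had 6 of 43 higher and 4 lower at a median log2 ratio of -0.29. Mgll, which cuts monoglycerides including an endocannabinoid, was at 256 units in progenitors, 4493 at day 7 (at least 10.5-fold), 11797 at day 10 and 8856 with TNF, although a second Mgll probe set lay under 428 units on both compared arrays. Fabp4, a fatty acid carrier of adipocytes and macrophages, was at 437 and 2196 units (5.03-fold). Lpin1, a phosphatidate phosphatase, was at 579 and 1956 units (3.38-fold). Fasn, which builds palmitate, was at 12550 units in progenitors, 3980 at day 7 (3.15-fold lower), 3091 at day 10 and 1804 with TNF. Echs1, Hadh and Acot7, which act on fatty acyl-CoA, were lower by 2.83-fold, at least 2.49-fold and 2.23-fold. Acaa1b, which also acts on fatty acyl-CoA, was higher, at 412 and 1183 units (at least 2.76-fold). A second Acaa1b probe set lay under 428 units on both compared arrays. Scd1, which desaturates what Fasn makes, was higher by 2 probe sets as given above, so these enzymes of one pathway differed in direction.

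Genes of several steps of nucleotide synthesis were lower. Purine and pyrimidine enzymes had a median log2 ratio of -0.58, the lowest of the 25 groups, with 27 of 36 genes below 0. With the floor at 802 units their median was -0.25. Cad, which carries out the opening steps of pyrimidine synthesis, was at 2126 and 523 units (4.07-fold lower). Ctps, which makes CTP, was at 3032 and 826 units (3.67-fold lower), and Dtymk was lower by both of its probe sets. Prps1, which makes the ribose donor, was at 2024 and 576 units (3.51-fold lower), but a non-unique Prps1 probe set was at 730 and 612. The genes that were higher act on salvage or on RNA. Upp1, which splits uridine, was at 688 and 3585 units (5.21-fold), and Apobec1, a cytidine deaminase, at 713 and 2274 (3.19-fold) by a shared probe set.

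Amino acid and one-carbon enzymes had 3 of 36 genes higher and 8 lower. Of the 3 higher, 2 handle arginine. Arg2, mitochondrial arginase, was at 425 and 2637 units (at least 6.16-fold), with a second probe set at 41 and 197. Ass1, which rebuilds arginine from citrulline, was at 824 and 2230 units (2.71-fold) and 5814 with TNF. Gatm, which uses arginine to start creatine synthesis, was at 1889 and 398 units (at least 4.41-fold lower). Maoa, monoamine oxidase A, was at 256 and 1007 units (at least 2.35-fold higher). Glul, glutamine synthetase, was at 2185 and 625 units (3.5-fold lower), and Fah, of tyrosine breakdown, at 1563 and 343 (at least 3.65-fold lower). Srm, spermidine synthase, was at 5408 and 1627 units and Psat1, of serine synthesis, at 10072 and 4143, both lower and chosen after their values were seen.

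In the group of tricarboxylic acid cycle and pentose phosphate enzymes, 28 of 34 genes lay below 0 and 6 above, with a median log2 ratio of -0.38. Of the 34 genes 3 were called lower (8.82%, under the 9.72% of all genes) and 0 higher. The group also holds genes outside these pathways, among them Pgm1 and Fbp1. Idh2, mitochondrial isocitrate dehydrogenase, was at 4332 and 1917 units (2.26-fold lower). Pgm1, which links glycogen to glycolysis, was at 5310 and 2358 units (2.25-fold lower) and back at 5957 at day 10. Fbp1, of gluconeogenesis, was at 1480 and 661 units (2.24-fold lower) and reached 4930 at day 10. The latter 2 calls thus held for day 7 and not for day 10.

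Genes of protein folding and translation lay mostly on the lower side. The endoplasmic reticulum folding group had 13 of 55 genes lower and 1 higher, with 44 of 55 below 0 and a median log2 ratio of -0.45. It also holds genes that act outside that compartment, among them Fkbp5, Fkbp4 and Ddit3. Fkbp5, a co-chaperone of steroid receptors, went from 10403 units in progenitors to 2286 at day 7 (4.55-fold lower). Manf, a secreted stress protein of the endoplasmic reticulum, was at 7533 and 2030 units (3.71-fold lower), and Mogs, which trims the first glucose from new glycoproteins, at 3467 and 964 (3.6-fold lower). Ddit3, the transcription factor CHOP of the stress response, was the 1 gene higher, at 336 and 1350 units (at least 3.15-fold), and stood at 6011 units at day 10. Sec61a1, the pore of the translocon, was at 13568 and 5156 units, and Hspa5, the chaperone BiP, was at 18400 and 9752, just short of 2-fold; these were chosen after their values were seen. Aminoacyl-tRNA synthetases and translation factors had 7 of 51 genes lower (13.7%, against 9.72% of all genes) and 0 higher. Of the 51 genes, 45 lay below 0, and the median log2 ratio was -0.52. Pabpc4 was 2.95-fold lower, at 4114 and 1395 units. Vars was 2.66-fold lower, at 5219 and 1965 units, and Hars, at 1452 and 600, was 2.42-fold lower. The synthetase Vars charges valine and Hars histidine, and Eif3b, of the initiation factor eIF3, was at 9433 and 4322 units (2.18-fold lower).

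Glycan-building enzymes had 9 of 42 genes lower and 3 higher. Most of those named among the lower act on N-glycans. Ddost, a subunit of oligosaccharyltransferase, was at 1744 and 602 units (2.9-fold lower), and Mgat2, which starts the second antenna, at 1914 and 560 (3.42-fold lower). Fut8, which adds core fucose, was at 2527 and 855 units (2.96-fold lower), and Piga, which starts the GPI anchor, at 1322 and 328 (at least 3.09-fold lower). Of those higher, 2 add sialic acid. St6gal1 was at 132 units in progenitors, 1534 at day 7 (at least 3.58-fold), 3302 at day 10 and 4489 with TNF. St8sia4, which makes polysialic acid, was at 568, 1742, 1857 and 5430 units (3.06-fold at day 7). Oga, which removes O-linked GlcNAc, was at 1537 and 3080 units, at the edge of a call (2.0-fold).

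Redox enzymes had 11 of 59 genes higher (18.6%) and 3 lower (5.08%) around a median log2 ratio of -0.01. Proteases and their inhibitors had 7 of 39 higher (17.9%) and 3 lower (7.69%). Among all genes 10.5% were higher and 9.72% lower. Gpx3, a secreted glutathione peroxidase, had the lowest ratio with values raised to 428 units, though genes with only a bound, such as Ddit4, may be lower. It went from 6566 units in progenitors to 760 at day 7 (8.64-fold lower), then 480 at day 10 and 104 with TNF. Prdx4, a peroxidase of the endoplasmic reticulum, was at 645 and 2536 units (3.93-fold higher), unlike most folding enzymes of that compartment. Cyb5r3 and Pon2 were 4.12-fold and 3.4-fold higher. Dhrs7 was at 9287 and 2855 units (3.25-fold lower), and Mgst2, which like Ltc4s can make leukotriene C4, at 4714 and 1967 (2.4-fold lower). Cyp4a12b was at least 3.69-fold higher at day 7, but its paralog Cyp4a12a is near-identical, so the gene read is uncertain. Serpinb6a, an inhibitor of cathepsin G, was at 251 and 2844 units (at least 6.64-fold higher), and Serpinb1a, an inhibitor of neutrophil elastase, at 1774 and 515 (3.44-fold lower). Both targets of these inhibitors are proteases of granulocytes, whose early markers were lower at day 7, and their part was not tested. Scpep1 and Dpp7, peptidases of lysosomes and vesicles, were 4.99-fold and 3.05-fold higher. Ide, which degrades insulin, was 3.46-fold lower by its brightest probe set, while another was at 370 and 489 units.

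**Figure D4:**
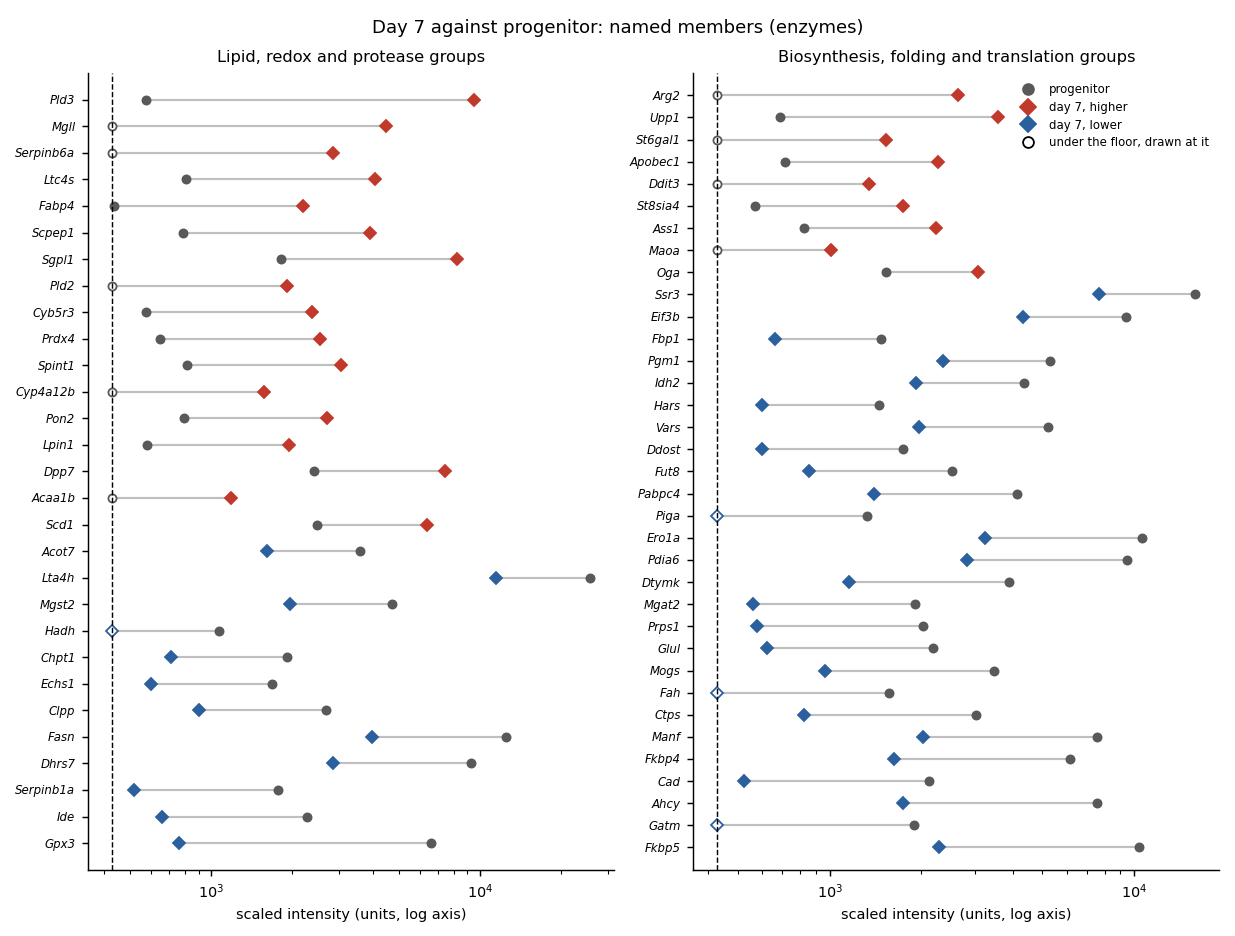
Scaled intensity of named enzyme genes on the progenitor array (grey circles) and the day 7 array (red diamonds where higher, blue where lower), on a log axis. Open symbols are levels under 428 units drawn at that value (dashed line). In the left panel Pld3 spans the widest distance, from 571 to 9500 units. In the right panel most genes are lower, with Fkbp5 going from 10403 to 2286.

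Signalling genes were mostly within 2-fold. The phosphatase group, which leaves out Ptprc and Dusp6, was the only signalling group with more genes lower than higher. The kinase Sgk1 had the largest ratio of the signalling genes with values raised to 428 units. The PI3K, Akt and mTOR pathway had 4 of 28 genes higher (14.3%) and 2 lower (7.14%), against 10.5% and 9.72% of all genes. Sgk1, a kinase activated through PI3K, was at 731 units in progenitors, 7930 at day 7 (10.9-fold higher), 12709 at day 10 and 10699 with TNF. Plekha1, which binds a PI3K product, was at 1260 and 4079 units (3.24-fold), and Cyth3, whose promoter is printed above, at 124 and 1753 (at least 4.1-fold), with its second probe set at 130 and 577. Ddit4, an inhibitor of mTORC1, was at 2883 and 304 units (at least 6.73-fold lower), and Pim3, a survival kinase, at 1117 and 249 (at least 2.61-fold lower). The 4 genes higher were Pik3cd, which makes PI3K lipids, and Plekha1, Cyth3 and Sgk1, which act below them.

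Of 13 tyrosine kinases of the Src, Syk, Tec and Jak families, 2 were higher (15.4%, against 10.5% of all genes) and 0 lower. Fgr, a Src family kinase of myeloid cells, was at 1227 and 4173 units (3.4-fold), and Tec at 1138 and 3579 (3.15-fold). Both stayed near that level, at 4091 to 4927 units, on the later arrays. Of 33 genes in the phosphatase group 0 were higher and 4 lower (12.1%, against 9.72% of all genes). The phosphatases Ptprc and Dusp6, which were higher, were counted in other groups. Ptpn22, which dampens antigen receptor signals and whose promoter is printed above, was at 1724 and 554 units (3.11-fold lower). Ptprcap, a partner of CD45, was at 2352 and 833 units (2.82-fold lower), opposite to Ptprc itself. Ptpn18 and Ppm1g were 2.68-fold and 2.34-fold lower.

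Calcium, cyclic nucleotide and lipid-dependent kinase signalling had 9 of 49 genes higher and 1 lower. Pde1b, a calmodulin-dependent phosphodiesterase, was at 381 and 2200 units (at least 5.14-fold), and Adcy7, an adenylyl cyclase, at 2018 and 4493 (2.23-fold). An enzyme that breaks cyclic nucleotides and an enzyme that makes cAMP were thus both higher. Anxa4, a calcium-dependent membrane-binding protein, was at 3171 units in progenitors, 12063 at day 7 (3.8-fold), 26974 at day 10 and 26949 with TNF. S100a1 was 3.94-fold higher by a non-unique probe set, while its other 2 probe sets lay under 428 units on both compared arrays. Dapk2, a calcium-dependent death-associated kinase, was at 1010 and 344 units (at least 2.36-fold lower).

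Small GTPases and their regulators had 8 of 96 genes higher (8.33%) and 3 lower (3.12%). Both shares were under those of all genes (10.5% and 9.72%). The 4 with the largest ratios were Ralgds, Rap2b, Rras and Rhoq, which act at membranes. Ralgds, the exchange factor that links Ras to Ral, went from 1199 units in progenitors to 9510 at day 7 (7.93-fold), and stayed there at 9433 and 9678 units. Rras was at -14 and 1678 units (at least 3.92-fold) and Rhoq, which acts in vesicle transport, at 1029 and 3606 (3.5-fold). Rap2b was at 436 and 2378 units (5.46-fold), with a second probe set at 24 and 613. The genes that were lower include 2 that act on Ran, the GTPase of nuclear transport and mitosis. Rcc1, the exchange factor of Ran, was at 2501 and 655 units (3.82-fold lower), and Ranbp1 at 5138 and 2482 (2.07-fold lower) by a non-unique probe set. Rasgrp2, an activator of Rap1, was at 2341 and 1074 units (2.18-fold lower).

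Adaptors had 7 of 48 genes higher (14.6%) and 3 lower (6.25%). The MAP kinase pathway had 3 of 37 higher (8.11%) and 2 lower (5.41%), both shares under the 10.5% and 9.72% of all genes. Cish, a feedback inhibitor of cytokine receptors that is induced by STAT5, was at 2007 and 7158 units (3.57-fold higher), 10549 at day 10 and 11444 with TNF. Sla and Sh2d2a, SH2 adaptors of lymphocyte receptor signalling, were at 6861 and 2171 units (3.16-fold lower) and at 1761 and 481 (3.66-fold lower). Sh3bp2, which binds Syk, was at 1034 and 2581 units (2.5-fold higher), and Peli1, a ubiquitin ligase of Toll-like receptor signalling, at 460 and 1193 (2.59-fold). Dusp6, a phosphatase that switches off ERK and is itself induced by ERK, was at 462 and 1433 units (3.1-fold higher). Mknk1 and Map4k4 were 2.22-fold and 2.3-fold higher, and for Map4k4 the next probe set gave 1.79-fold. Map3k6 and Mapk8ip1 were at least 2.13-fold and at least 2.19-fold lower.

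Secreted proteins had few genes above 428 units, 36 of 194 measured, and some of the largest ratios. Mfge8, which bridges dying cells to phagocytes, was at 1416 units in progenitors, 16100 at day 7 (11.4-fold), 46313 at day 10 and 44033 with TNF. Ccn3, a matrix-associated signalling protein, was at 1751, 15270, 21874 and 10835 units (8.72-fold at day 7). Il18, a cytokine of the interleukin 1 family, was at 80, 3326, 3349 and 319 units (at least 7.77-fold at day 7). All 3 were high at days 7 and 10, and with TNF Mfge8 remained so while Il18 lay under 428 units. Ctla2b, a cathepsin inhibitor-like protein with a near-identical copy in Ctla2a, was at 2358 and 41 units (at least 5.51-fold lower). Clu, an extracellular chaperone, was 2.55-fold lower, Vcan, a matrix proteoglycan, at least 2.16-fold lower, and Rnase4 4.63-fold higher.

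**Figure D5:**
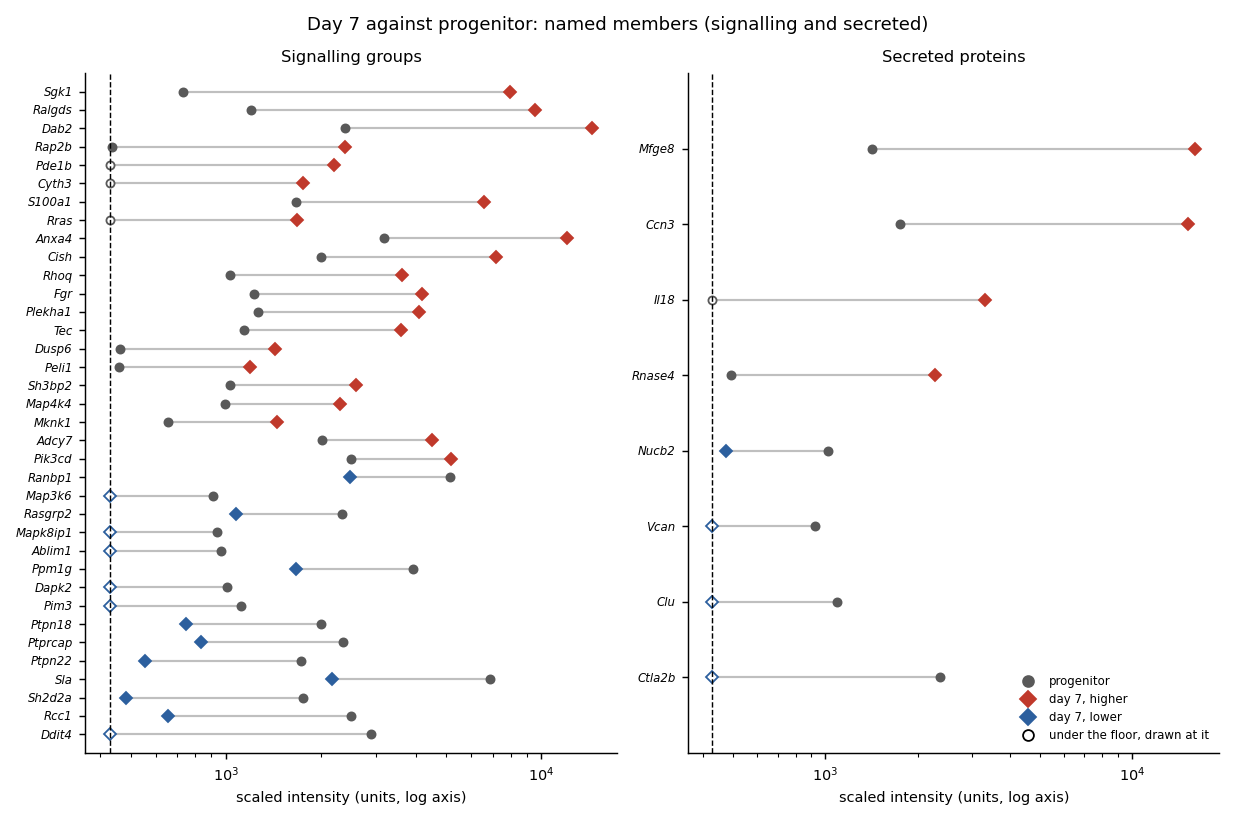
Scaled intensity of named signalling genes (left) and secreted proteins (right) on the progenitor array (grey circles) and the day 7 array (red diamonds where higher, blue where lower), on a log axis. Open symbols are levels under 428 units drawn at that value (dashed line). Sgk1, from 731 to 7930 units, and Mfge8, from 1416 to 16100, span the widest distances of their panels.

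Several of the largest ratios lay outside the 25 groups, which hold 1896 of the 7212 genes. Of 2719 genes in no group that were above 428 units, 206 were higher and 214 lower, both shares under the 10.5% and 9.72% of all genes. Nabp1, a single-stranded DNA-binding protein of DNA repair, was at 374 and 5400 units (at least 12.6-fold higher). Hebp1, a haem-binding protein, was at -65 and 4637 units (at least 10.8-fold), and Atf5, a transcription factor of the ATF family, at 485 and 4120 (8.5-fold). Nabp1 and Hebp1 lay at 3287 to 5095 units on the later arrays, whereas Atf5 was at 936 with TNF. On the lower side, Pdcd4, an inhibitor of translation, was at 6871 units in progenitors, 1300 at day 7 (5.28-fold lower), 1068 at day 10 and 4081 with TNF. Per1, a circadian clock gene, was at 2115 and 418 units (at least 4.94-fold lower), and Scrg1 at 2258 and -114 (at least 5.27-fold lower). Ankrd28, Usp10 and Pafah2 were 4.67-fold, at least 4.79-fold and at least 4.71-fold lower. Nedd4, a ubiquitin ligase, was at 2392 and 434 units (5.51-fold lower) by a shared probe set, and at 2016 units with TNF.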

How the data were processed

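Total RNA of 4 mouse cell samples was measured on 1 Affymetrix array each, per the labels. The deposited values are intensities of 12654 probe sets. The software, background method and scaling the authors used are not stated in the labels or headers used here. The trimmed mean of the deposited values was 1000.0 units on each of the 4 arrays, so they were already on a common scale. Symbols came from the platform annotation: 10276 probe sets have 1 gene symbol (10257 updated through RefSeq), 363 have several and were left out, as were 66 control probe sets. The 75th percentiles of the arrays were made equal (factors 0.962 to 1.05) and values were raised to 428 units. Log2 ratios were taken with Python 3.11.15, numpy 2.4.6 and pandas 2.3.3. The calculation was run on simulated data with changes larger than 2-fold placed in bright genes. That run checks the calculation and does not measure the error of calls in these data.

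Named genes are those with 2 or more probe sets called the same way, up to 4 higher and 4 lower in each of 25 groups, and the 12 highest and 12 lowest ratios. The members, the 32 lists left out and the groups were chosen with earlier results of these data known. The alternatives were other floors, a 3-fold rule, values as deposited, quantile normalization, unique probe sets alone and the median over probe sets. Array precision is limited by their number. Promoters came from RefSeq tables of GRCm38.p6.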

Additional observations from a re-analysis of the deposited data

How the results depend on the processing

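With 1 array in each group no replicate could be left out. No paired analysis was possible because each group holds 1 array and the result comes from no test. The counts depended mainly on the floor and on the fold. With the floor at 105 units, 623 genes were called higher and 563 lower (332 and 311 at 428 units). In the classes the counts were 75 higher and 32 lower for surface, 68 and 97 for enzymes, 53 and 25 for signalling, and 15 and 11 for secreted genes, and 36 and 28 genes had 2 probe sets called higher or lower. With the floor at 802 units 226 were higher and 223 lower, with 11 surface genes and 1 secreted gene lower. A 3-fold rule left 135 and 77, with 23 and 5 for surface, 23 and 22 for enzymes, 15 and 5 for signalling, 1 secreted gene lower, and 6 and 3 by 2 probe sets. The share of higher genes among those called was 51.6% at 2-fold and 63.7% at 3-fold. Without shared or non-unique probe sets 310 and 295 were called, and 5 and 5 by 2 probe sets. Values as deposited gave 340 and 320, quantile normalization 340 and 330, of which 323 and 310 were called in the main setting too, and the median over probe sets 320 and 312. Of the 176 named genes, 0 changed direction under these alternatives, of which the one without shared or non-unique probe sets covered 165. Most of the alternatives could not have changed a direction. Another floor or fold cannot reverse a ratio, and the scaling factors of the compared arrays were nearly equal (0.964 and 0.962). The median log2 ratio of all genes lay between -0.09 and -0.04. Enzymes had more genes lower than higher with each floor, but 23 higher and 22 lower with the 3-fold rule. Signal over background limits the dim genes: the log2 ratios of 26 of the 176 named genes moved by 0.61 or more with the lower floor and those of 62 with the higher.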
